A study of Mus musculus with 9 samples.

Results

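The histone genes of RAW264.7 cells were examined in control, RANKL and RANKL + UD libraries. The members were the genes of the deposited table whose symbol begins with H1f, H2ac, H2bc, H3c, H4c, H2az or H3f3 or with an older Hist symbol, or equals H2ax, without the 4 symbols that carry -ps. This rule gave 77 of 56691 genes. Of these, 64 were clustered replication-dependent genes, 54 on chromosome 13 and 10 on chromosome 3. Another 5 were the variants H1f0, H2az1, H2az2, H3f3a and H3f3b, and 8 stood apart from both sets, namely H2ax, H3f3c, H3f3aos and the H1 genes H1f6 to H1f10. RAW264.7 is an established mouse macrophage line, and RANKL, the cytokine that drives osteoclast differentiation, turns its cells towards multinucleated osteoclasts. UD is uridine, a pyrimidine nucleoside. Each group held 3 libraries, without addition (control), with RANKL, or with RANKL and UD, and the labels give a culture time of 3 days. All libraries came from this same line, and the sources used here do not state the UD dose of these libraries or whether the libraries of a group were separate cultures, so p-values measure the spread between libraries only. The comparison of RANKL with control addresses osteoclast differentiation, and that of RANKL + UD with RANKL addresses the action of uridine on it.

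Histone proteins package DNA into nucleosomes. An octamer of H2A, H2B, H3 and H4 carries the DNA, and linker histone H1 binds where the DNA enters and leaves it. The clustered genes are transcribed mainly in S phase to supply new chromatin. Their mRNAs lack introns and end in a conserved stem-loop, bound by the stem-loop binding protein Slbp, in place of a poly(A) tail. The variant genes lie apart from the clusters, make polyadenylated mRNAs throughout the cell cycle and include the linker histone H1f0, H2A.Z (H2az1 and H2az2) and H3.3 (H3f3a and H3f3b). Some clustered genes, and H2ax, also make polyadenylated transcripts that run past the stem-loop, and such transcripts are known from differentiated cells. The labels describe selection of poly(A) RNA before strand-specific library preparation, so the libraries were made to hold mRNAs with a tail.

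The stem-loop was searched in GENCODE M21 transcripts (build GRCm38) to show where the annotated transcript of each histone gene ends relative to it. It was found in 40 of the 64 clustered genes (62.5%), in 0 of the 5 variants and in 55 of 55450 genes overall (0.0992%). The following stretches of annotated transcripts are shown 5′ to 3′ as DNA letters with the stem-loop in capitals, first for clustered genes with measurable levels, then for H2ax, and last for H4c17, whose annotated transcript ends 3 bases after the stem-loop.
H1f2: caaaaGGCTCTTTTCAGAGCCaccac
H2bc8: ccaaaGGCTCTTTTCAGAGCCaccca
H3c15: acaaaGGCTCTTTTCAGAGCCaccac
H4c9: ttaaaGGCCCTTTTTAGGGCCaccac
H2ax: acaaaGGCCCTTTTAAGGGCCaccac
H4c17: ctaaaGGCCCTTTTCAGGGCCatc
The H1f2 stretch lies at chr13:23739507-23739532 on the plus strand, and that of H2bc8 at chr13:23571838-23571863 on the plus strand. That of H3c15 lies at chr3:96238480-96238505 on the minus strand and that of H4c9 at chr13:22040961-22040986 on the minus strand. The H2ax stretch lies at chr9:44335235-44335260 on the plus strand and the H4c17 stretch at chr13:21812124-21812147 on the plus strand. After the stem-loop the annotated transcript ran on for 840 bases in H1f2, 155 in H2bc8, 377 in H3c15, 330 in H4c9 and 822 in H2ax. The annotated transcripts of H2bc21 (2620 bases), H2bc4 (1156 bases) and H4c12 (312 bases) held no match, which says only that these letters were not in them.

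The level of a clustered gene was described as FPKM, the deposited count scaled to the exonic length of the gene and the total count of the library. A gene was tested when it reached an FPKM of 1 in at least 3 of the 9 libraries. In total, 18 of the 77 members passed, made up of 11 clustered genes, the 5 variants, H2ax and H3f3c, and 59 did not. Of the 22 clustered genes whose annotated transcript ends within 100 bases of the stem-loop, 2 passed (H4c8 and H4c18). Of the 18 with more than 100 annotated bases after it, 6 passed (H1f2, H2ac8, H2bc8, H3c15, H4c9 and H4c14), and of the 24 with no match, 3 passed (H2bc21, H2bc4 and H4c12). The median of the mean FPKM over 9 libraries was 0.124, 0.399 and 0.0883 in these 3 sets. The set with no match pools annotated transcripts of 312 to 2620 bases. An annotated transcript can end before the stem-loop, so no match does not show that a gene lacks it. The tested clustered genes had a median exonic length of 727 bases and the others 520 bases. GENCODE M21 is not stated to be the annotation the authors counted on.

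**Figure D1:**
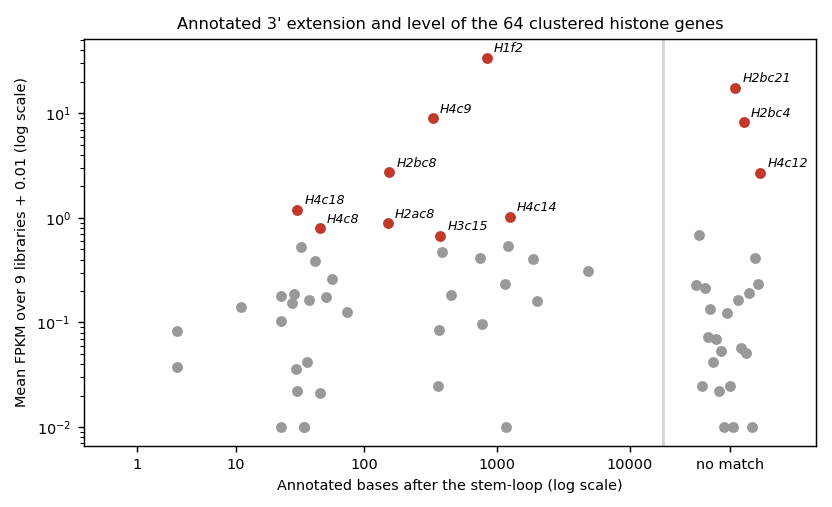
Mean FPKM over 9 libraries (plus 0.01, log scale) of the 64 clustered histone genes against the number of annotated bases after the stem-loop (log scale), with genes without a match at the right, spread sideways only for legibility. Red points are the 11 tested genes and grey points the others. The highest points are H1f2, with 840 annotated bases after the stem-loop, and H2bc21, with no match in its transcript.

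The members that did not pass were close to the limit of detection in counted reads. Their highest FPKM in any library was 1.57, and 9 were at 0 in all 9 libraries. The 53 clustered genes among them held 111 to 191 reads together in a control library, 242 to 260 in a RANKL library and 132 to 179 in a RANKL + UD library. Just inside the limit were H3c15, which reached 1.14 or more in 3 libraries, and H2ac8, which reached 1.16. Just outside were H1f5, which reached 0.95 in as many libraries, and H4c6, which reached 0.78. H3c15 reached an FPKM of 1 in the 3 RANKL libraries only. H4c8 and H4c18 reached it in all 3 RANKL libraries, in some RANKL + UD libraries and in no control library. H2ac8 reached it in 3 libraries, at 1.62 and 1.18 with RANKL and 1.16 with RANKL + UD, and in no control library. These genes passed through libraries in which they were high, so that their direction against control is partly fixed by the filter. For H3c15, H4c8 and H4c18, whose RANKL libraries alone meet the filter, this also holds against RANKL + UD. It holds less for H2ac8, which needed a RANKL + UD library to pass. Counts and medians over the tested genes are given as a description. Library totals were 15951800 to 19746862 reads. Counts of libraries in the same group differed beyond sampling noise (chi-square divided by its degrees of freedom, 3 to 9.75).

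The clustered histone mRNA counted after poly(A) selection was higher in the RANKL libraries than in the control libraries. It lay between these levels in the RANKL + UD libraries. Clustered mRNA without a tail was selected against, so these levels are not those of all clustered mRNA. Summed over the 64 clustered genes, the FPKM was 48.95, 43.01 and 43.93 in the control libraries. It was 118.87, 124.35 and 124.93 in the RANKL libraries and 92.07, 87.53 and 95.05 in the RANKL + UD libraries. All 3 groups were apart, with means of 45.3 ± 3.2, 122.7 ± 3.3 and 91.6 ± 3.8 (SD, n = 3 each). The smallest two-sided p of an exact permutation test between groups of 3 is 0.1, and such a sum needs no filter on low genes. In bulk RNA, fewer cells of a type and less RNA per cell cannot be told apart.

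The sum rested on few genes. H1f2, H2bc21, H4c9 and H2bc4 were the 4 clustered genes with the highest mean FPKM. Without them, the other 60 genes summed to 13.1 ± 0.97 in control, 23.6 ± 1.5 in RANKL and 16.9 ± 2.2 in RANKL + UD libraries. The 53 genes that were not tested summed to 7.16 ± 1.1, 9.35 ± 1.9 and 7.25 ± 0.29, values that overlap between control and RANKL libraries. By class, H1 summed to 22 ± 1.1 in control, 53.9 ± 4.4 in RANKL and 30 ± 1 in RANKL + UD libraries, and H2B to 11.8 ± 1.4, 41.1 ± 1.2 and 38 ± 1.4. H4 summed to 8.33 ± 2.6, 20.9 ± 1.2 and 19.8 ± 3.1, H3 to 1.21 ± 0.45, 3.34 ± 0.43 and 1.75 ± 0.39, and H2A to 1.9 ± 0.62, 3.51 ± 0.96 and 2.01 ± 1. The summed FPKM was thus made mostly of reads counted for H1, H2B and H4 genes, while the H2A and H3 genes contributed little in any group. Many of these genes are near copies of others. The share of 100-base windows that also occur in other genes' transcripts was 0% (H2ac1) to 100% (H2ac19) in clustered H2A genes. In clustered H3 genes it was 20.4% (H3c4) to 100% (H3c14). How reads from shared stretches were counted is not given in the sources used here.

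**Figure D2:**
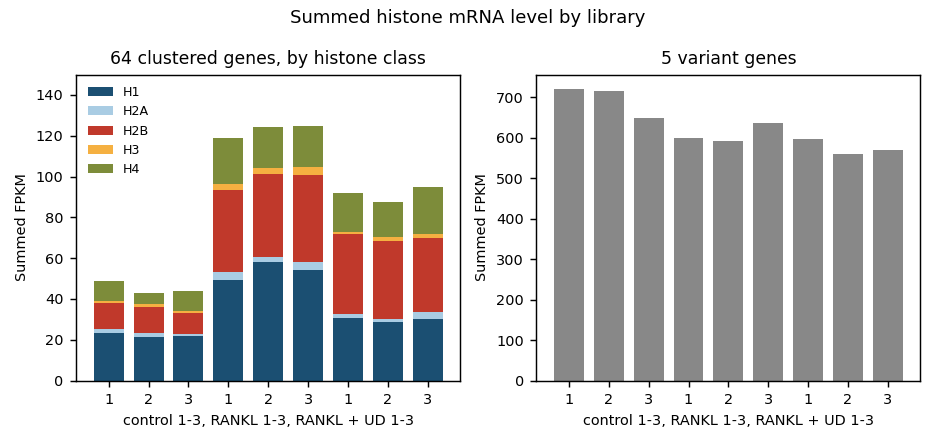
Summed FPKM in each of the 9 libraries for the 64 clustered genes, stacked by histone class (left), and for the 5 variant genes (right), with both axes starting at 0. The clustered sum was 43.01 to 48.95 in control, 118.87 to 124.93 in RANKL and 87.53 to 95.05 in RANKL + UD libraries.

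Of the 11 tested clustered genes, 8 were higher in RANKL than in control at an adjusted p under 0.05 in edgeR's quasi-likelihood test, 0 were lower and 3 did not pass. The 8 include H3c15, H4c8 and H4c18, which passed the filter through the RANKL libraries, and the other 5 are H1f2, H2bc21, H2bc4, H2bc8 and H4c9. Over all 11995 genes tested, 27.3% were higher and 30.2% lower. With library totals in place of TMM scaling, 36.8% of all calls were in the higher direction, against 47.5% with TMM scaling. The median log2 fold change of the 11 genes was 1.79, against -0.027 over all genes tested. This median includes H2ac8, H3c15, H4c8 and H4c18, whose direction is partly fixed by the filter. Without an expression filter, 12 of 57 clustered genes were higher and 0 lower, while 14.4% of the 26736 genes then tested were higher.

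H1f2 encodes a linker histone and was the most abundant clustered gene. Its FPKM was 21.92, 19.48 and 20.17 in control libraries, 48.31, 56.15 and 52.77 in RANKL libraries and 28.79, 28.18 and 29.17 in RANKL + UD libraries. Every RANKL library was above every RANKL + UD library, and each of these above every control library. The rise with RANKL was 2.71-fold (95% interval 2.45 to 3.01, adjusted p = 2.6e-13). Of the 100-base windows of its annotated transcript, 5.07% also occur in transcripts of other genes, so few of its reads could be shared with them.

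Among the H2B genes, H2bc21 rose 4.11-fold (95% interval 3.66 to 4.61, adjusted p = 4.7e-15). Its FPKM was 6.37, 5.61 and 5.93 in control, 23.88, 22.73 and 22.56 in RANKL and 25.07, 24.57 and 21.94 in RANKL + UD libraries, so that the control libraries stood apart and the other 2 groups overlapped. None of its 100-base windows occurs in another gene's transcript. H2bc4 had an FPKM of 3.75, 3.11 and 2.06 in control, 10.1, 10.83 and 13.8 in RANKL and 10.43, 9.17 and 10.27 in RANKL + UD libraries. It rose 4.11-fold (95% interval 3.16 to 5.33, adjusted p = 3.57e-09), with 25.4% of its windows shared with other genes. H2bc8 had an FPKM of 1.34, 1.56 and 1.22 in control, 4.43, 5.78 and 3.37 in RANKL and 1.4, 2.48 and 2.81 in RANKL + UD libraries. It rose 3.46-fold (95% interval 2.11 to 5.68, adjusted p = 1.3e-04), and 44.9% of its windows are shared.

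H2bc21, H2bc4 and H2bc8 each lie head to head with an H2A gene in the clusters. H2bc21 and H2ac20 are 238 bases apart in the table, and over the 9 libraries their mean FPKM was 17.6 and 0.25. H2bc4 and H2ac6 are 250 bases apart and had a mean FPKM of 8.17 and 0.151. H2bc8 and H2ac8 are 175 bases apart and had 2.71 and 0.876. In each of these pairs the H2B gene had the higher level per length. Only pairs with a tested clustered gene were taken, and H2ac20 and H2ac6 did not pass the filter. The order within these pairs is thus partly fixed by the filter, and it does not describe the other H2B and H2A genes.

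H4c9 had the highest mean level of the H4 genes. Its FPKM was 2.69, 2.23 and 3.28 in control, 12.77, 12.67 and 10.83 in RANKL and 12.18, 9.95 and 14.25 in RANKL + UD libraries, a rise of 4.73-fold with RANKL (95% interval 3.55 to 6.3, adjusted p = 3.33e-09). The control libraries were below all others. H4c8 had an FPKM of 0.51, 0.32 and 0.27 in control, 1.51, 1.43 and 1.22 in RANKL and 0, 1.3 and 0.49 in RANKL + UD libraries. Its rise of 3.93-fold (95% interval 1.32 to 11.7, adjusted p = 0.0301) rested on few reads, 2 to 4 per control library and 11 to 14 per RANKL library. H4c18, with 80.7% of its windows shared, rose 2.58-fold (adjusted p = 0.042). Both calls were lost without control replicate 2 (adjusted p = 0.0867 and 0.173) and without control replicate 3 (0.0711 and 0.0549). The call for H4c8 was also lost without RANKL replicate 1 or 2 (0.0666 and 0.0621), and that for H4c18 without RANKL replicate 3 (0.185) or RANKL + UD replicate 2 (0.0502). H4c12 had an FPKM of 2.28, 0.65 and 2.61 in control and 4.39, 1.33 and 3.01 in RANKL libraries, which overlap, with a fold change of 1.72 (95% interval 0.776 to 3.8, adjusted p = 0.235). H4c14 did not pass either, with a fold change of 1.32 (95% interval 0.769 to 2.27).

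H3c15, the only tested clustered H3 gene, had 2, 3 and 1 reads in control libraries, 23, 33 and 28 in RANKL libraries and 10, 3 and 13 in RANKL + UD libraries. Its fitted fold change with RANKL was 12.7 (95% interval 5.32 to 30.5, adjusted p = 2.36e-05), on few reads. The summed reads, relative to library totals, had a ratio of 12.6 between RANKL and control (exact 95% interval 5.57 to 35.4, counting error only). As 61.6% of its windows also occur in other genes, its reads could be split among copies. H2ac8, the only tested clustered H2A gene, had an FPKM of 0.93, 0.5 and 0.71 in control and 0.94, 1.62 and 1.18 in RANKL libraries. Its fold change of 1.86 did not pass (95% interval 0.889 to 3.89, adjusted p = 0.142).

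**Figure D3:**
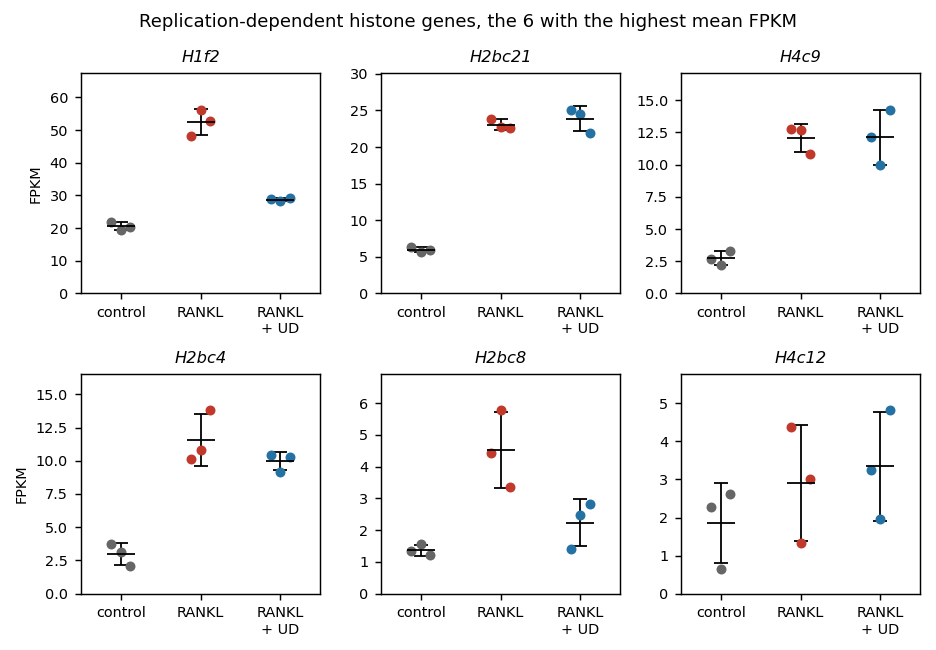
FPKM in each library of the 6 clustered histone genes with the highest mean level, for control, RANKL and RANKL + UD. Points are libraries and bars the mean ± SD (n = 3), with each axis starting at 0. H1f2 falls from 52.4 to 28.7 between the means of RANKL and RANKL + UD, while H2bc21 has means of 23.1 and 23.9.

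With UD, the clustered genes did not move as a block. In RANKL + UD against RANKL, 3 of the 11 tested genes fell (H1f2, H2bc8 and H3c15), 0 were higher and 8 did not pass. Over all genes tested, 20.2% were lower and 18.6% higher, and with library totals in place of TMM scaling 66.2% of all calls were higher, against 48% with it. The share of lower calls among the 11 genes, 27.3%, was thus close to the background. Their median log2 fold change was -0.82, the value of H4c18, against 0.005 over all genes tested. It includes H3c15, H4c8 and H4c18, whose RANKL libraries alone meet the filter, and H2ac8, which met it mostly through RANKL libraries. The direction of these genes is partly fixed by the filter, so this median does not show a general fall. Without an expression filter, 5 of 57 clustered genes were lower, against 9.18% of all genes.

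H1f2 was 1.94-fold lower in RANKL + UD than in RANKL (log2 fold change -0.95, SE 0.07, adjusted p = 1.27e-09). H2bc8 was 2.17-fold lower (log2 fold change -1.12, SE 0.32, adjusted p = 8.1e-03), a call lost without RANKL replicate 2 (adjusted p = 0.0618) or RANKL + UD replicate 1 (0.0539). H3c15 was 3.12-fold lower (log2 fold change -1.64, SE 0.46, adjusted p = 7.58e-03), a gene that passed the filter through the RANKL libraries alone. By contrast, H2bc21 had a log2 fold change of -0.04 (95% interval -0.18 to 0.11) and H4c9 one of -0.08 (95% interval -0.42 to 0.26). The direction of these 2 values turns with the scaling. H2bc4 had -0.3 (95% interval -0.63 to 0.03, adjusted p = 0.14). H4c8, H4c18 and H2ac8 had values of -1.36, -0.82 and -0.94 whose intervals include 0, and H4c12 and H4c14 had 0.12 and 0.27. H4c8 passed the test without RANKL + UD replicate 2 (adjusted p = 0.0281) and H2ac8 without RANKL + UD replicate 1 (0.0475).

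The ratio of H1f2 to H2bc21 within a library does not depend on library scaling. In FPKM it was 3.44, 3.47 and 3.4 in control, 2.02, 2.47 and 2.34 in RANKL and 1.15, 1.15 and 1.33 in RANKL + UD libraries. The 3 groups did not overlap, with 3.44 ± 0.036, 2.28 ± 0.23 and 1.21 ± 0.11 (SD, n = 3 each). This pair was not planned and joins a gene that fell with UD to a gene that did not. The gap between RANKL and RANKL + UD libraries thus restates their separate changes and is a description. The exact test of such a ratio again has 0.1 as its smallest two-sided p. Relative to H2bc21, H1f2 was thus lower in RANKL than in control libraries, although both genes rose with RANKL, and lower again in RANKL + UD libraries.

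**Figure D4:**
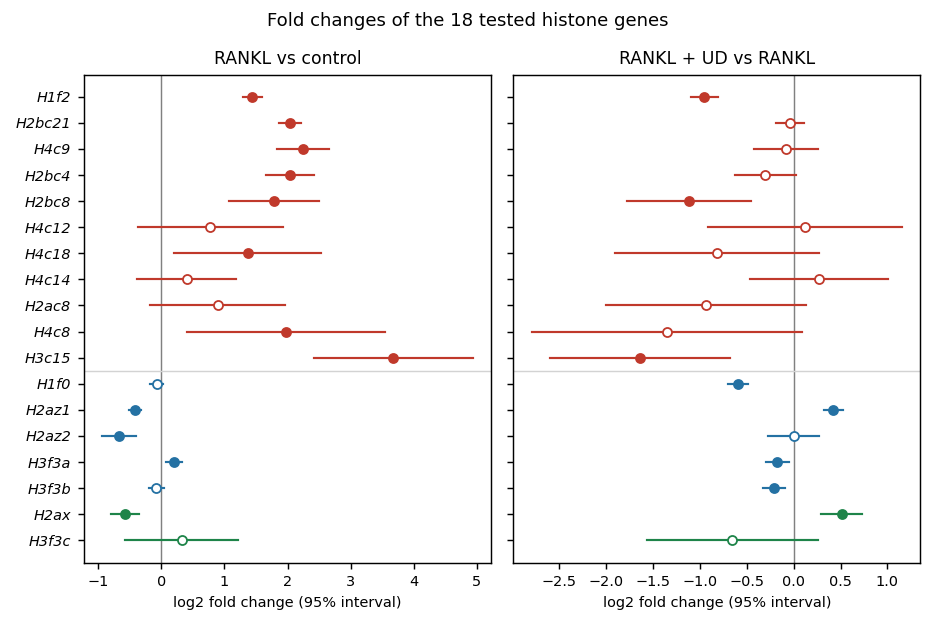
Log2 fold change with its 95% interval for the 18 tested histone genes in RANKL against control (left) and RANKL + UD against RANKL (right). Red marks clustered genes, blue variants and green H2ax and H3f3c, and filled points have an adjusted p under 0.05. All 11 clustered points lie above 0 at the left, from 0.40 to 3.67, and at the right H1f2, H2bc8 and H3c15 are filled and below 0. In both panels, the direction of H2ac8, H3c15, H4c8 and H4c18 is partly fixed by the filter on low values.

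RANKL + UD was also compared with control, a comparison that shares its libraries with the other 2. Here 5 of the 11 tested clustered genes were higher (H1f2, H2bc21, H2bc4, H3c15 and H4c9), 0 were lower and 6 did not pass, against 26.7% higher and 27.3% lower over all genes tested. H2bc21 stayed 4.01-fold (95% interval 3.57 to 4.5), H4c9 4.48-fold (3.36 to 5.97) and H2bc4 3.33-fold (2.56 to 4.35) above control, with adjusted p-values of 7.21e-15, 7.47e-09 and 6.22e-08. H1f2 was 1.4-fold above control (95% interval 1.26 to 1.56, adjusted p = 9.95e-06). H3c15 was 4.09-fold above (95% interval 1.43 to 11.7, adjusted p = 0.0226), a call lost without control replicate 3 (0.0662), RANKL + UD replicate 1 (0.0509) or RANKL + UD replicate 3 (0.115). H2bc8 had a fold change of 1.59 (95% interval 0.925 to 2.74) and did not pass.

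Summed, the 5 variant genes were far more abundant than the 64 clustered genes in these poly(A)-selected libraries, although H2az2 lay below H1f2, H2bc21, H4c9 and H2bc4 in mean FPKM. The log2 fold changes of the variants lay between -0.67 and 0.42 in the 3 comparisons. Their summed FPKM was 720.45, 714.7 and 649.78 in control, 599.12, 592.42 and 636.1 in RANKL and 598.01, 561.07 and 569.17 in RANKL + UD libraries. The clustered genes made up 6.12 ± 0.39% of the FPKM of both sets in control, 16.8 ± 0.5% in RANKL and 13.7 ± 0.52% in RANKL + UD libraries (SD, n = 3 each), with no overlap between groups. In order of mean FPKM over the 9 libraries, the variants were H1f0 (186.7), H3f3b (178.2), H2az1 (142), H3f3a (112.8) and H2az2 (6.98). Over the 9 libraries the ranges of the first 3 overlapped, as did those of H2az1 and H3f3a, and H2az2 lay far below.

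H1f0, the linker histone known from differentiated and slowly dividing cells, had an FPKM of 229.21, 229.84 and 206 in control, 192.34, 197.52 and 206.06 in RANKL and 142.44, 138.9 and 138.24 in RANKL + UD libraries. The RANKL + UD libraries were below all others. It fell by 0.59 on the log2 scale in RANKL + UD against RANKL (SE 0.051, adjusted p = 1.07e-08). In RANKL against control its log2 fold change was -0.07 (95% interval -0.18 to 0.03, adjusted p = 0.234), and it passed the test as lower with library totals (adjusted p = 0.00931) and without control replicate 3 (0.027). Per length, H1f2 stood at 0.0928 ± 0.007 of the H1f0 level in control, 0.264 ± 0.018 in RANKL and 0.205 ± 0.0049 in RANKL + UD libraries.

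H2az1 and H2az2 encode H2A.Z, a variant deposited at promoters and other regulatory regions. H2az1 had an FPKM of 162.06, 154.55 and 155.13 in control, 107.64, 110.15 and 114.89 in RANKL and 161.26, 152.2 and 159.77 in RANKL + UD libraries. The RANKL libraries were below all others, and the other groups overlapped. H2az1 fell with RANKL by 0.42 on the log2 scale (SE 0.048, adjusted p = 2.02e-07) and was higher with UD by 0.42 (SE 0.048, adjusted p = 5.52e-07). Between RANKL + UD and control its log2 fold change was 0.01 (95% interval -0.09 to 0.11). H2az2 had an FPKM of 9.89, 9.4 and 8.98 in control, 5.56, 5.2 and 6 in RANKL and 6.64, 5.14 and 5.99 in RANKL + UD libraries. It fell with RANKL by 0.67 on the log2 scale (SE 0.13, adjusted p = 1.14e-04) and had a log2 fold change of 0.003 (95% interval -0.27 to 0.28) with UD, where the groups overlapped. Within a library, the ratio of H2az1 to H2az2 in FPKM was 16.7 ± 0.5 in control, 19.9 ± 1.1 in RANKL and 26.9 ± 2.7 in RANKL + UD libraries, without overlap.

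H3f3a and H3f3b encode the same H3.3 protein, the H3 that is deposited outside replication. H3f3a had an FPKM of 113.52, 112.15 and 102.28 in control, 118.06, 110.33 and 125.85 in RANKL and 119.39, 105.78 and 108.21 in RANKL + UD libraries, and all groups overlapped. Its log2 fold changes of 0.2 with RANKL (adjusted p = 7.07e-03) and -0.17 with UD (0.0249) passed with TMM scaling but not with library totals (0.11 and 0.245). The second was also lost when any of 4 single libraries was left out, RANKL replicates 1 and 3 (adjusted p = 0.0558 and 0.116) and RANKL + UD replicates 2 and 3 (0.139 and 0.103). H3f3b had an FPKM of 205.77, 208.76 and 177.39 in control, 175.52, 169.22 and 183.3 in RANKL and 168.28, 159.05 and 156.96 in RANKL + UD libraries. It had a log2 fold change of -0.08 with RANKL (95% interval -0.2 to 0.04, adjusted p = 0.259), which passed as lower with library totals (0.0162) and without control replicate 3 (0.0104). With UD it was lower by 0.21 (adjusted p = 6.11e-03), a call not reached with library totals (0.0859).

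Of the 5 variants, 1 was thus higher and 2 lower in RANKL against control, 1 higher and 3 lower in RANKL + UD against RANKL, and 0 higher and 3 lower in RANKL + UD against control. Over all genes tested, the shares were 27.3% higher and 30.2% lower, 18.6% and 20.2%, and 26.7% and 27.3%, and with 5 genes a count of 1 or 2 is near such a background. With library totals, the counts in the first comparison were 0 higher and 4 lower, and in the second 1 higher and 1 lower. The median log2 fold change of the 5 was -0.08, -0.17 and -0.29 in the 3 comparisons.

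**Figure D5:**
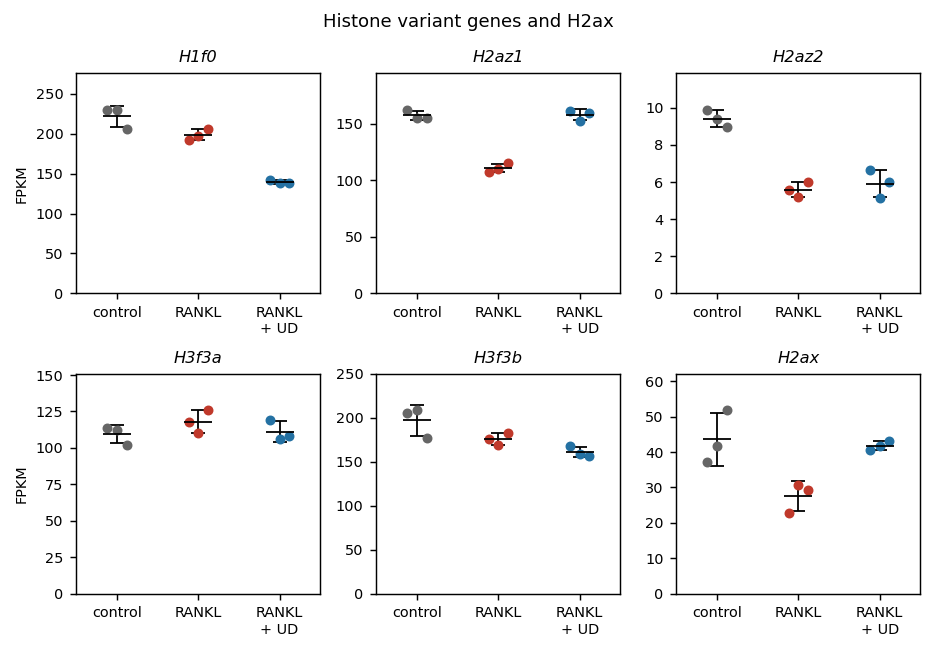
FPKM in each library of the 5 histone variant genes and H2ax for control, RANKL and RANKL + UD, with points for libraries, bars for the mean ± SD (n = 3) and axes that start at 0. H2az1 and H2ax are lowest in RANKL, with means of 110.9 and 27.7, and H1f0 is lowest in RANKL + UD, with a mean of 139.9.

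H2ax encodes the H2A form that is phosphorylated at DNA breaks, and it makes both stem-loop and polyadenylated mRNA. Its FPKM was 37.32, 41.68 and 51.82 in control, 22.84, 30.69 and 29.42 in RANKL and 40.54, 41.82 and 43.13 in RANKL + UD libraries, with the RANKL libraries below all others. It fell with RANKL by 0.57 on the log2 scale (SE 0.11, adjusted p = 8.77e-05) and was higher with UD by 0.51 (SE 0.11, adjusted p = 5.63e-04). H2ax and H2az1 thus shared a direction in both comparisons, lower with RANKL and higher with UD. H3f3c, with 56.7% of its windows shared with other genes, had log2 fold changes of 0.32 and -0.65 that did not pass. H1f10, a linker histone gene outside the clusters, stayed at an FPKM of 0.15 to 0.73 and was not tested.

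Transcription and processing of the clustered genes depend on Npat, the activator at histone loci, on its partner Casp8ap2, on Slbp, and on Lsm11 of the U7 particle that cuts the mRNA. In a list of 19 genes for these steps, 18 were tested. In RANKL against control, 3 were higher and 9 lower (median log2 fold change -0.2), and in RANKL + UD against RANKL 11 were higher and 0 lower (median 0.29). As shares these are 16.7% higher and 50% lower with RANKL, against 27.3% and 30.2% of all genes tested, and 61.1% higher with UD, against 18.6%. Slbp had an FPKM of 13.47, 12.45 and 10.95 in control, 7.32, 8.17 and 7.79 in RANKL and 12.3, 12.57 and 12.23 in RANKL + UD libraries. It fell with RANKL by 0.58 on the log2 scale (SE 0.071, adjusted p = 5.56e-07) and was higher with UD by 0.59 (SE 0.071, adjusted p = 1.41e-06). Slbp mRNA was therefore lowest in the group in which the summed clustered FPKM of these poly(A)-selected libraries was highest. Casp8ap2 fell by 0.26 (adjusted p = 1.16e-03) and rose by 0.49 (2.54e-06). Npat had a log2 fold change of -0.14 with RANKL (adjusted p = 0.0862) and rose by 0.32 with UD (7.9e-04). With RANKL it passed as lower with library totals (0.00644), with both limma fits (0.0291 and 0.0293) and without control replicate 2 (0.021) or RANKL replicate 1 (0.0329). Lsm11 passed in neither comparison (-0.18 and -0.06), and its direction with UD turns with library totals. Cstf2, a cleavage factor, had the largest rise of the list with RANKL (0.55), and Ccne1, cyclin E1, the largest fall (-0.68) and the largest rise with UD (0.91).

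Histone chaperones carry new histones to the DNA. Of 28 genes listed, 27 were tested, of which 3 were higher and 16 lower with RANKL (median -0.15) and 17 higher and 0 lower with UD (median 0.2). As shares these are 11.1% higher and 59.3% lower with RANKL, against 27.3% and 30.2% of all genes tested, and 63% higher with UD, against 18.6%. Asf1b, a chaperone of new H3 and H4, had the largest fall, from 25.95 ± 1.9 FPKM in control to 9.97 ± 0.47 in RANKL libraries, and stood at 18.26 ± 1.7 in RANKL + UD libraries. Nasp, which holds soluble H3 and H4, fell by 0.29 on the log2 scale with RANKL and rose by 0.39 with UD. Dnajc9, also an H3 and H4 chaperone, had the largest rise of the list with UD (0.85), and Znhit1, a subunit of the complex that deposits H2A.Z, the largest rise with RANKL (0.41).

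Most genes of DNA replication and proliferation were lower with RANKL and higher with UD. Of 22 listed, all were tested, and with RANKL 20 were lower and 1 higher (Cdt1, log2 fold change 0.29), with a median of -0.45. With UD, 21 were higher and 0 lower, with a median of 0.59. The shares are 90.9% lower with RANKL, against 30.2% of all genes tested, and 95.5% higher with UD, against 18.6%. The Cdt1 call was lost with library totals (adjusted p = 0.0774), with both limma fits (0.131 and 0.13) and without control replicate 1 or 2 (0.0841 and 0.0783) or RANKL replicate 3 (0.0514), and its control and RANKL libraries overlapped. The summed FPKM of the list was 717.4 to 755.1 in control, 475.4 to 480.9 in RANKL and 737 to 761.7 in RANKL + UD libraries. Mki67, the Ki-67 antigen of cycling cells, had the largest fall with RANKL (-1.03) and Rrm2, a subunit of ribonucleotide reductase, the largest rise with UD (0.97). H2az1 (-0.42 and 0.42) and H2ax (-0.57 and 0.51) had the signs of this list's medians, while H1f2 (1.44 and -0.95) had the opposite ones.

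The cell markers set the frame for these values. All 8 osteoclast markers were higher with RANKL and lower in RANKL + UD than in RANKL, with a summed FPKM of 57.48 to 60.19 in control, 2714 to 2918 in RANKL and 1723 to 1760 in RANKL + UD libraries. The largest rise was that of Mmp9, a protease, from 0.43 ± 0.13 to 314.3 ± 15 FPKM, and the largest fall with UD that of Oscar, an osteoclast receptor, from 21.98 ± 0.16 to 8.09 ± 1.2. Of the 6 macrophage markers, 1 was higher (Cd68) and 5 lower with RANKL, Adgre1 the most (-2.46), and with UD 1 was higher (Adgre1, 0.22, lost without RANKL replicate 1 or RANKL + UD replicate 3) and 5 lower, Itgam the most (-0.46). Markers of cells that such a culture should not hold summed to at most 0.51 FPKM in any library. The clustered histone sum thus had the same order of groups as the osteoclast marker sum. The part of a changed mix of cells in the histone results was not tested.

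Of 11 RNAs known to lack a poly(A) tail, 6 were at 0 in all libraries and only Rn7sk was tested. Rn7sk had no call in either comparison, with log2 fold changes of 0.97 with RANKL and -0.61 with UD. These values have the signs of the medians of the tested clustered genes, but its libraries overlapped between groups. The summed FPKM of the 11 RNAs was 1.85 to 5.87 in control, 5.04 to 7.94 in RANKL and 3.96 to 6.93 in RANKL + UD libraries, so that the groups overlapped. How far RNA without a tail entered the libraries, and its part in the clustered histone levels, was not tested.

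Promoter sequence was available from RefSeq (GRCm38.p6) for 67 of the 77 members, as 250 bases before the annotated start. The motif CCAAT, the motif TATAAA and the E2F letters (TTTGGCGC and, as an alternative, TTTCCCGC) were searched on both strands, and none of them contains another. CCAAT was in 48 of 58 clustered promoters (82.8%), in 4 of 5 variant promoters (80%) and in 33.8% of all 32851 promoters. TATAAA was in 48.3% of clustered promoters, in 1 of 5 variant promoters and in 12.4% of all promoters. The E2F letters were in 1 clustered promoter (1.72%) and in 1.3% of all promoters. Of the clustered genes with measurable levels, 3 of 8 promoters held CCAAT, and of those that were not tested, 45 of 50 did. The first set is incomplete, since 3 of the 11 tested clustered genes (H2bc21, H2bc4 and H4c14) had no promoter in the table. Its promoters without CCAAT were those of H3c15, H4c8, H4c9, H4c12 and H4c18, mostly H4 genes. Among the H4 genes that were not tested, H4c2, H4c6, H4c11 and H4c17 held none either, while H4c1, H4c3 and H4c4 did. The contrast thus mixes histone class with level. The promoters of H1f2, H2bc8 and H2az1 are shown as examples of a clustered gene without and with TATAAA and of a variant that moved the other way, 5′ to 3′ with these motifs in capitals.
H1f2: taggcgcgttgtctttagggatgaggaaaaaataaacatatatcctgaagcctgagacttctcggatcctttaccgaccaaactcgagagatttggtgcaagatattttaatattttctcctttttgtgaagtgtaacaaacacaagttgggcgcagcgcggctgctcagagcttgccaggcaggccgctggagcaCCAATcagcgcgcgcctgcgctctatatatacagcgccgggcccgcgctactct
H2bc8: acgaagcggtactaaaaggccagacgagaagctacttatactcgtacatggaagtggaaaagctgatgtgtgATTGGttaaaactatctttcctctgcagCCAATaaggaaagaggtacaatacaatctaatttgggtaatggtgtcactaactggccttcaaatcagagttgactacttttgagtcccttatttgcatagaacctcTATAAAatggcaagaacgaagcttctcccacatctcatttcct
H2az1: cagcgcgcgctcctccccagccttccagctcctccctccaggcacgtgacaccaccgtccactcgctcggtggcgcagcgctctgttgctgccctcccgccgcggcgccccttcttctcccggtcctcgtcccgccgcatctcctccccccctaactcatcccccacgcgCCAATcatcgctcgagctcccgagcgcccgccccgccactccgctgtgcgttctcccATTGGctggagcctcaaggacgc
They lie at chr13:23738557-23738806, chr13:23571150-23571399 and chr3:137864237-137864486, all on the plus strand. In H1f2 a single CCAAT begins 54 bases before the start. In H2bc8 there are 2 CCAAT matches and 1 TATAAA match, the latter beginning 43 bases before the start, and H2az1 holds 2 CCAAT matches. A match describes the letters and not a site in use.

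Outside the histone genes, the 5 genes whose log2(FPKM + 1) followed the mean of the 11 tested clustered genes most closely over the 9 libraries were Ak1, Gnl2, Gm18445, Lrch1 and Snap23, with Pearson's r from 0.996 down to 0.989. The libraries share treatment groups, so these values are a description. Ak1, adenylate kinase 1, had an FPKM of 1.92, 1.29 and 1.33 in control, 4.79, 4.85 and 5.41 in RANKL and 3.45, 3.4 and 4 in RANKL + UD libraries, the same order of groups as the clustered sum.

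Annotated genes on the opposite strand overlap H1f0, H2ac8, H2ax and H3f3a, and the overlapping genes had a mean FPKM of at most 0.213. Whether the counting used the strand is not given in the sources used here.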

How the data were processed

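Poly(A) RNA of RAW264.7 cells was sequenced, giving 9 libraries in 3 groups. The authors deposited raw read counts per gene and the FPKM, which recomputes from count, exonic length and library total for 100% of genes. The submitters' processing notes name mm10, and the aligner, counter and annotation are not given in the sources used here. Of 77 members, 0 had identical coordinates in GENCODE M21, so table coordinates are not printed. Counts were tested with edgeR 4.0.16 (R 4.3.3) by the quasi-likelihood test, fitted to all 9 libraries with TMM factors, over the 11995 genes whose FPKM reached 1 in 3 or more libraries, with Benjamini-Hochberg adjustment over all of them. The procedure was also run on simulated counts, with few changed genes and a fixed spread. These data hold many changed genes, so that run does not bear on the choice of scaling. Alternatives used DESeq2 1.42.0 and limma 3.58.1 on log2(FPKM + 1) or log2(FPKM + 0.1), other filters and scalings, a replicate block, and each library left out. Tables were prepared in Python 3.11.15. Totals of 15951800 to 19746862 counts set the precision, and intervals are model-based over 3 libraries per group. The members and gene lists were chosen with earlier results of these data known. Genes were named by a rule: all variants, H2ax and H1f10, in each clustered class the 2 most abundant tested genes and that with the largest change, 5 regulators, the largest rise and fall in each list, and the 5 most similar genes. H4c14 and H4c18 were added to complete the tested members, and H2ac6, H2ac20, H1f5, H4c6 and H4c17 as neighbours or examples.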

Additional observations from a re-analysis of the deposited data

How the results depend on the processing

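Of the alternatives run (no filter, filterByExpr, RLE, library totals, DESeq2, limma with either pseudocount, 6 libraries, a replicate block and each library left out), none gave a lower clustered gene in RANKL against control or a higher one in RANKL + UD against RANKL. In RANKL against control, clustered genes called higher numbered 6 to 8 when a library was left out, and those called lower in RANKL + UD against RANKL 2 to 4. The latter count was 5 without a filter and 5 with filterByExpr, which test more genes. For the variants in RANKL against control, 0 were higher with library totals, 0 with limma on log2(FPKM + 1) and 0 on log2(FPKM + 0.1), and 4 were lower with library totals and 2 to 4 with a library left out (4 without control replicate 3). In RANKL + UD against RANKL, 1 variant was lower with library totals and 1 with either limma fit, and 2 to 3 with a library left out. The cause of these changes was not tested.

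The deviations of same-numbered libraries from their group means had correlations of -0.019 to 0.098. Libraries with different numbers were not compared in this way, so these values do not decide whether the numbers mark a pairing or a batch. With the replicate block, 7 clustered genes were higher in RANKL against control and 3 lower in RANKL + UD against RANKL.

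Values near 0 changed sign. In RANKL + UD against RANKL, the log2 fold change of H2az2 was -0.01 with RLE and DESeq2, -0.002 with the replicate block and -0.093 to 0.096 with a library left out. That of H2bc21 was 0.05 with library totals, 0.05 with both limma fits (0.046 and 0.047) and -0.078 to 0.021 with a library left out. H4c9 had 0.006 with library totals and -0.21 to 0.043, and H4c12 -0.23 to 0.55 with a library left out. Lsm11 had 0.031 with library totals, 0.018 and 0.025 with limma and -0.16 to 0.05 with a library left out. In RANKL + UD against control, H4c8 had -0.066 with limma on log2(FPKM + 0.1) and -0.62 to 1.25 with a library left out, H2ac8 -0.73 to 0.25, H2ax -0.15 to 0.082, H2az1 -0.013 to 0.035 and H3f3a -0.032 to 0.063. Depth limits the clustered genes with few reads per library.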

Other observations

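Members under the expression filter held a few differences of their own when no filter was used, named here after their values were seen. H1f8, the oocyte linker histone, had 0 reads in all 3 control libraries, 9, 22 and 16 in RANKL libraries and 14, 1 and 11 in RANKL + UD libraries, with an adjusted p of 1.91e-07 for RANKL against control in edgeR. Its RANKL + UD libraries ranged from 1 to 14 reads. H1f3, a clustered linker histone with an annotated transcript of 7425 bases, had 18, 45 and 32 reads in control, 54, 73 and 69 in RANKL and 27, 17 and 36 in RANKL + UD libraries, with log2 fold changes of 1.01 with RANKL (adjusted p = 0.00196) and -1.24 with UD (2.3e-04). H3c4 had 2, 6 and 10 reads in control, 22, 20 and 14 in RANKL and 4, 4 and 3 in RANKL + UD libraries, with log2 fold changes of 1.55 (adjusted p = 0.0459) and -2.26 (0.0059). H1f3 and H3c4 shared their signs with H1f2. H2ac6, H2bc23 and H2bc9 were higher with RANKL (adjusted p = 0.00303, 0.0442 and 0.033) and not lower with UD at the threshold.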
